A study of Fragaria vesca with 9 samples.

Results

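In axillary buds of woodland strawberry, *Fragaria vesca*, 120 genes were lower in both the FT3OE and the RdV genotype than in H4, and lower by nearly the same amount in each. They were chosen by their own values. Each gene's expected count was divided by the library total to give CPM (counts per 1000000) and put on the scale log2(CPM + 0.5). A gene was kept where the FT3OE and RdV means differed by less than 0.3 on that scale, all 6 FT3OE and RdV libraries lay below all 3 H4 libraries, and the mean over the 9 libraries was at least 1 CPM. A stretch of linkage group 4, from FvH4_4g29310 to FvH4_4g29630, was left out. Of 34006 genes in the table, 16946 had the required mean outside that stretch, 1948 of those had all 6 libraries below H4, and 1509 also met the limit on the difference. The 120 with the largest drop, meaning the H4 mean minus the higher of the other 2 means, form the set. Both comparisons with H4 and the one between RdV and FT3OE were therefore used in the choice, and the values below describe the set without testing it.

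An axillary bud sits where a leaf joins the stem and holds its own meristem. In strawberry such a bud can stay dormant, grow into a runner, or grow into a branch crown, a short leafy shoot whose tip can later flower. Proteins of the FLOWERING LOCUS T (FT) family are mobile signals that act in shoot meristems, and their balance with related repressors is known to shift plants between vegetative growth and flowering.

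The 9 libraries were made from untreated, undifferentiated buds of node 4, taken when the plants had 4 leaves. H4 is the Hawaii-4 accession (3 libraries). FT3OE (3 libraries) is labelled with the Hawaii-4 ecotype and genotype, and its name is read here as overexpression of FT3. Neither the promoter of that construct nor the number of lines is stated in the labels. RdV (3 libraries) is a separate ecotype without a transgene named in its labels. All plants grew from seed in 16 h days at 22 °C and 8 h nights at 18 °C. The titles of H4 carry the code US4 and those of both other genotypes the code UB4, neither of which is defined. The genes described here differ along exactly that division, so a difference marked by the codes cannot be told apart from genotype. The labels do not say whether replicates were separate plants or pools, so every p-value here rests on variation among libraries that could be technical only.

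Library totals ran from 23110933 to 44916872 counts. No identifier is paired with a name, since 0 of 34006 matched the gene table used here. FT3 could therefore not be looked up, nor could marker genes of the bud or of other tissues, and genes are given by identifier with no function. As a check of the labels, the identifier with the largest rise in FT3OE, FvH4_3g09870, had 7584, 11460 and 13889 counts in the 3 FT3OE libraries, 3, 1 and 0 in H4, and 1, 0 and 0 in RdV; it was picked for that rise and has no name here. One library of RdV, replicate 2, stood apart for the genes of this set: it held the highest RdV value for 63 of the 120 genes (52.5%), against 31.0% of the 16946 genes that could have been chosen. Over all genes tested, leaving out RdV replicate 2 also gave more calls than leaving out any other library. This held for RdV against FT3OE and for each genotype below H4. Values without RdV replicate 2 are given for some results below.

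As a group, the 120 genes took a smaller share of the transcripts in every FT3OE and RdV library than in any H4 library. The choice all but fixes this order, since every gene had to follow it on the CPM scale. The summed level of the 120, in TPM (a share of transcripts corrected for gene length), was 6485, 6609 and 6532 in H4 replicates 1, 2 and 3. In FT3OE it was 3611, 3522 and 3637, and in RdV it was 3592, 3875 and 3308. The means were 6542 ± 62.8 in H4, 3590 ± 60.2 in FT3OE and 3592 ± 283 in RdV (SD, n = 3 each). The FT3OE and RdV means differed by less than the spread within either group. The FT3OE libraries lay inside the range of the RdV libraries. The limit of 0.3 in the choice favours close means. Without RdV replicate 2, the RdV libraries stood at 3592 and 3308, and FT3OE replicates 1 and 3 lay above both. These sums include FvH4_4g36104, whose high TPM rested on few counts, as described below. Without that gene the sums were 3012.51, 2940.5 and 2936.76 in FT3OE and 2829.79, 3085.15 and 2829.27 in RdV. All 3 FT3OE libraries then lay above RdV replicates 1 and 3 and below RdV replicate 2. In whole buds, fewer cells of a type and less RNA per cell cannot be told apart.

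**Figure D1:**
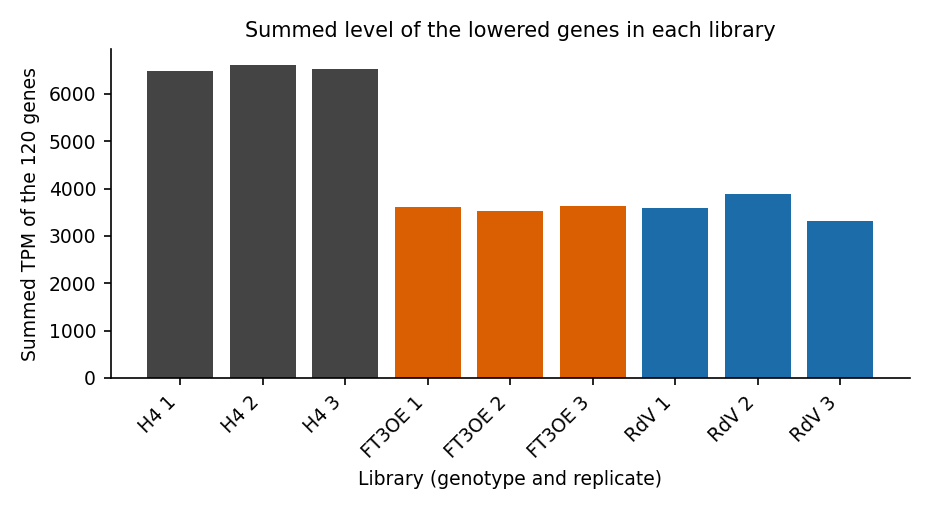
Bars give the summed TPM of the 120 genes in each of the 9 libraries, coloured by genotype, from 0. The H4 bars stand between 6485 and 6609 and the other 6 between 3308 and 3875.

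The single genes ran from a modest drop to near absence. The drop on the log2(CPM + 0.5) scale had a median of 0.86 and a range of 0.68 to 3.97. It reached 1 in 38 genes and 2 in 8 genes. The 120 were also fitted together with all genes of the table that passed a filter on low counts (edgeR, TMM scaling). Their median log2 change was −1.08 in FT3OE and −1.12 in RdV, which is 2.12-fold and 2.17-fold lower. Over all 18587 genes tested the median was 0.01 and −0.0038. In that fit 65 genes were at least 2-fold lower in both genotypes and 10 at least 4-fold. Over all 18587 genes tested, 203 were at least 2-fold lower in both with an adjusted p under 0.05 in both (edgeR). Of these, 65 were in the set, so most lay outside it. The number at least 4-fold lower over all genes was not counted. All 120 were tested, and the adjusted p was under 0.05 for all 120 in both comparisons with H4. The same call took in 14.9% of all genes tested for FT3OE below H4 and 23.6% for RdV below H4, or 11.6% for both. Because the choice of genes used these contrasts, nothing is read from that count. The distance between the lowest H4 library and the highest of the other 6 had a median of 0.61 on the log2(CPM + 0.5) scale. It was under 0.1 in 4 genes, FvH4_2g24820, FvH4_6g04150, FvH4_2g25710 and FvH4_7g03220, which were picked out after their values were seen. Among all 16946 genes that could have been chosen, 11.5% had all 6 libraries below H4.

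**Figure D2:**
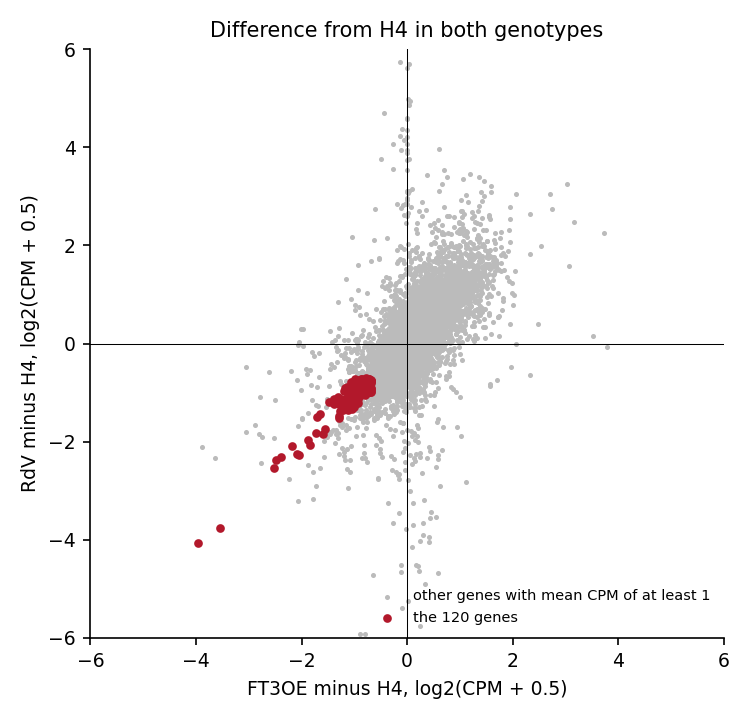
Each point is a gene, with its mean difference FT3OE minus H4 across and RdV minus H4 upwards, both on log2(CPM + 0.5); red points are the 120 genes and grey points the other genes with a mean of at least 1 CPM, 10 of which lie outside the axes. The red points run along the diagonal from the edge of the grey cloud towards the lower left because the choice of genes requires it.

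The gene with the largest drop was nearly unread outside H4. FvH4_6g01540 had 227, 219 and 256 counts in the H4 libraries, 7, 0 and 0 in FT3OE, and 0, 0 and 3 in RdV. In 4 of these 6 libraries it had no count, and the H4 libraries were close to one another at 8.54 ± 1.02 CPM (SD, n = 3). The ratio of summed counts, scaled for depth, was 139 between H4 and FT3OE (95% exact binomial interval 67.3 to 348) and 238 between H4 and RdV (81.0 to 1155). These intervals cover counting error only. The FT3OE counts all came from replicate 1 and the RdV counts all from replicate 3. Without those libraries FvH4_6g01540 was at least 251-fold higher in H4 than in FT3OE and at least 162-fold higher than in RdV, for a floor of 3 counts over the remaining libraries of the group.

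FvH4_1g03420 was read at a low level in every library outside H4. It had 17.7, 31.6 and 15.1 CPM in H4, compared with 1.74, 0.999 and 1.18 in FT3OE and 0.82, 1.63 and 0.82 in RdV. Replicate 2 was the highest in H4 and in RdV, and no library outside H4 came near the lowest H4 library. The fitted log2 change was −4.17 ± 0.35 in FT3OE and −4.38 ± 0.37 in RdV (SE).

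Of the next 8 genes in order of drop, 4 were read at over 10 CPM in every H4 library and over 6 CPM in every other library. FvH4_3g43540 had 46.9, 43.8 and 38.1 CPM in H4, compared with 6.08, 8.45 and 6.66 in FT3OE and 6.75, 8.03 and 6.23 in RdV. Its FT3OE and RdV ranges overlapped, and the H4 libraries stood far above them, at a ratio of means of 6.08 to FT3OE and 6.13 to RdV. FvH4_6g49000 had 124, 131 and 144 CPM in H4, compared with 24.1, 23.8 and 22.6 in FT3OE and 26.6, 23.7 and 25.4 in RdV. Its 6 lower libraries lay within a few CPM of each other, and the fitted log2 change was −2.60 ± 0.07 in FT3OE and −2.48 ± 0.07 in RdV (SE). Per length it was the most abundant of the 10 genes with the largest drop, at 120 ± 9.3 TPM in H4 (SD, n = 3). FvH4_4g34860 had 77.3, 75.3 and 83.3 CPM in H4, compared with 18.5, 18.8 and 17.4 in FT3OE and 16.8, 15.5 and 15.9 in RdV. Here all 3 RdV libraries were below all 3 FT3OE libraries, with a log2 RdV minus FT3OE of −0.165 ± 0.06 (SE) that did not pass the threshold. FvH4_7g28730 had 47.4, 50.7 and 55.6 CPM in H4, compared with 14.3, 14.4 and 13.3 in FT3OE and 10.9, 11.2 and 13.4 in RdV. Of its RdV libraries, replicate 3 lay within the FT3OE range and the others below it.

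The remaining 4 of the leading 10 were read at lower levels. FvH4_6g46770 had 11.4, 13.3 and 12.1 CPM in H4, compared with 2.98, 2.63 and 1.56 in FT3OE and 1.93, 2.66 and 3.06 in RdV. FvH4_6g15610 had 20.03, 22.4 and 26.1 CPM in H4, compared with 4.91, 6.52 and 4.097 in FT3OE and 4.69, 4.03 and 4.29 in RdV. In both genes the FT3OE and RdV ranges overlapped, and all H4 libraries stood well above them. FvH4_5g35660 had 95, 76 and 105 counts in H4, compared with 4, 6 and 19 in FT3OE and 11, 4 and 8 in RdV. FT3OE replicate 3 held most of its FT3OE counts, and without that library its fitted log2 change in FT3OE moved from −3.83 to −4.60. FvH4_2g12640 had 94, 76 and 95 counts in H4, compared with 12, 18 and 30 in FT3OE and 11, 17 and 10 in RdV, which is 3.20 ± 0.10, 0.51 ± 0.14 and 0.45 ± 0.15 CPM (SD, n = 3 each).

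**Figure D3:**
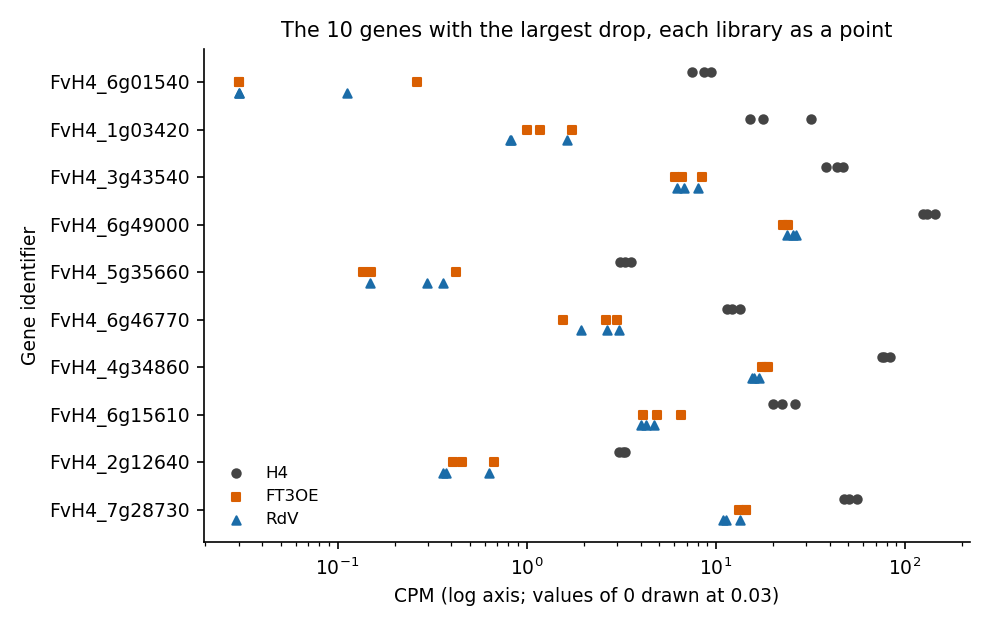
Each point is the CPM of 1 library for the 10 genes with the largest drop, on a log axis, with H4, FT3OE and RdV on separate lines for each gene and values of 0 drawn at 0.03. The H4 points lie to the right of all others in every gene, and the FT3OE and RdV points lie beside or over one another.

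In H4 the set had a median level near that of the other genes, and in FT3OE and RdV a lower one. That the set lay lower in FT3OE and RdV than in H4 follows from the choice. Median TPM of the 120 genes was 18.4 in H4, against 19.9 for the 16946 genes that could have been chosen. It was 8.18 in FT3OE and 8.64 in RdV, where the other genes had medians of 22.2 and 22.0. In H4, 89 of the 120 genes had a mean of at least 10 TPM, compared with 56 in FT3OE and 55 in RdV. The share of the genes that could have been chosen at that level was not counted, so nothing is read from these numbers. A mean under 1 CPM was seen for 0 genes in H4, 8 in FT3OE and 9 in RdV. The 0 in H4 was fixed by the choice. It asked for a mean of at least 1 CPM over the 9 libraries, with every H4 library above the rest. At a floor of 3 counts, the shallowest library detects 0.130 CPM and the deepest 0.0668.

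The most abundant genes of the set per length had smaller drops. FvH4_4g21340 had 547, 623 and 527 TPM in H4, compared with 291, 257 and 276 in FT3OE and 264, 307 and 278 in RdV. It was the most abundant of the set by counts, with 583 ± 49.1 CPM in H4 (SD, n = 3). Its fitted log2 change was −1.20 ± 0.12 in FT3OE and −1.14 ± 0.12 in RdV (SE), where the medians of the set were −1.08 and −1.12. FvH4_5g01350 had 189, 201 and 214 TPM in H4, compared with 113, 115 and 105 in FT3OE and 137, 104 and 124 in RdV. Its FT3OE libraries were close together and its RdV libraries spread on both sides of them.

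In 2 other abundant genes, as in FvH4_4g21340, RdV replicate 2 lay nearer to H4 than the rest. FvH4_6g28520 had 382, 366 and 402 TPM in H4, compared with 246, 242 and 215 in FT3OE and 210, 268 and 205 in RdV. It is one of 3 genes in the set with an expected count that is not whole, so some of its reads were shared with another gene and its level is uncertain; the others were FvH4_4g35560 and FvH4_7g00270. FvH4_5g10230 had 241, 248 and 222 TPM in H4, compared with 154, 130 and 154 in FT3OE and 112, 184 and 115 in RdV. Its RdV replicate 2 was above all FT3OE libraries and the other RdV libraries were below them. Without FT3OE replicate 2 FvH4_5g10230 was no longer past the threshold against H4 (edgeR, Benjamini-Hochberg adjusted p = 0.05014).

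The highest TPM of all, in FvH4_4g36104, rested on few counts. It was listed at 917, 835 and 948 TPM in H4, compared with 599, 582 and 700 in FT3OE and 762, 790 and 479 in RdV, from 77 to 270 counts per library. Its effective length, taken from the ratio of counts to TPM, was 0.0062 times the median of all genes. With limma on log2(TPM + 1) its change against H4 did not pass the threshold in either genotype (adjusted p = 0.0562 and 0.0753). With it left out of the sum, the other 119 genes together held 5567 to 5774 TPM in H4. They held 2829 to 3085 TPM in RdV, with the FT3OE libraries inside that range.

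How alike FT3OE and RdV were in these genes follows in part from the limit of 0.3 in the choice. The FT3OE mean was above the RdV mean in 76 genes and below it in 44, and the median difference was 0.07 on the log2(CPM + 0.5) scale. Regardless of sign, the difference was under 0.1 in 44 genes and over 0.2 in 35. Over the genes that could have been chosen, the median H4 minus FT3OE was −0.098 and the median H4 minus RdV −0.065 on that scale. The share of those genes with FT3OE above RdV was not counted. In the fit of all genes tested, the RdV minus FT3OE log2 change of the 120 had a median of −0.05 and a median SE of 0.14. It ranged from −0.74 to 0.64. The fit uses TMM scaling and no fixed 0.5, so its values need not keep to the limit. Of the 120, 2 differed between RdV and FT3OE (edgeR adjusted p under 0.05), where 22.2% of all genes tested did. At an unadjusted p under 0.05 there were 14, where 34.3% of all genes tested had one. The choice used this contrast too, so nothing is read from these counts. A difference that missed the threshold does not show equal levels.

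The 2 genes past that threshold went in opposite directions. FvH4_5g04400 had 106, 117 and 112 CPM in H4, compared with 51.1, 51.2 and 48.4 in FT3OE and 65.3, 57.2 and 59.3 in RdV, so its FT3OE libraries were the lowest and did not overlap with RdV (log2 RdV minus FT3OE 0.29 ± 0.06, SE). FvH4_7g17810 had 37.1, 35.2 and 38.5 CPM in H4, compared with 22.3, 22.7 and 23.1 in FT3OE and 20.7, 19.2 and 18.4 in RdV, so its RdV libraries were the lowest (log2 −0.21 ± 0.07, SE; edgeR, Benjamini-Hochberg adjusted p = 0.0411). The call of FvH4_7g17810 was lost in 15 of 18 other fits, among them DESeq2, limma, the replicate block and the fit of only the 6 libraries compared. That of FvH4_5g04400 was lost in 3, all of them limma. Without RdV replicate 2 the count rose from 2 to 12 of the 120, of which 10 were lower in RdV, while 27.5% of all genes then passed. In the same fit the median log2 change of the set in RdV against H4 was −1.25, against −1.12 with all libraries.

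Replicates spread more in these genes, at the median, than in the genes that could have been chosen, without a test of that difference. The median SD over replicates on the log2(CPM + 0.5) scale was 0.13 in H4, 0.14 in FT3OE and 0.18 in RdV, compared with 0.09, 0.08 and 0.13 over the genes that could have been chosen. Within H4, replicate 2 held the highest value for 52 of the 120 genes (43.3%, against 29.4% of the genes that could have been chosen) and replicate 1 for 25 (20.8%, against 37.7%). In 1 gene, FvH4_3g37040, H4 replicate 2 decided the size of the difference: it had 4.02 CPM there and 1.35 and 1.05 CPM in replicates 1 and 3. Without it the fitted log2 change of FvH4_3g37040 moved from −2.68 to −1.85 in FT3OE and from −2.04 to −1.22 in RdV, where it no longer passed the threshold (edgeR adjusted p = 0.114). Its RdV call was also lost without RdV replicate 1 (adjusted p = 0.0666) and without RdV replicate 3 (0.0597). Among all 120 genes, leaving out 1 library moved the change against H4 by more than 1.5-fold in 3 genes for FT3OE and in 4 for RdV. Besides FvH4_3g37040, FvH4_5g35660 and FvH4_6g01540 these were FvH4_6g38280 and FvH4_7g03220. FvH4_6g38280 had a log2 change in RdV of −1.29, which was −1.87 without RdV replicate 2. Its RdV call was lost without H4 replicate 1 and without RdV replicate 3 (edgeR adjusted p = 0.0543 and 0.0528), and its FT3OE call without H4 replicate 1, H4 replicate 2 or any 1 of the FT3OE libraries (adjusted p of 0.0618 to 0.106). FvH4_7g03220 had a log2 change in RdV of −1.28, which was −1.98 without RdV replicate 1. Its RdV call was lost without H4 replicate 2 (log2 −1.02, edgeR adjusted p = 0.104), RdV replicate 2 (−1.01, 0.0672) or RdV replicate 3 (−1.06, 0.0915).

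The genes were unevenly spread over the linkage groups, which the choice did not use outside the left-out stretch of group 4. Linkage group and order were read from the identifiers, as the figures on either side of the letter g. Linkage group 2 held 28 of the 120 genes (23.3%), where it held 2542 of the 16946 genes that could have been chosen. Linkage group 5 held 11 (9.2%, against 14.0%), group 3 held 15 (12.5%, against 15.7%), and group 7 held 18, where 12.1% of the genes that could have been chosen lie. Of the 1509 genes that met all limits before the largest drops were taken, 16.3% lay on linkage group 2, and 120 genes raised in both genotypes by the mirrored rule had 13.3% there. These shares are descriptions without a test, since neighbouring genes are not independent.

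**Figure D4:**
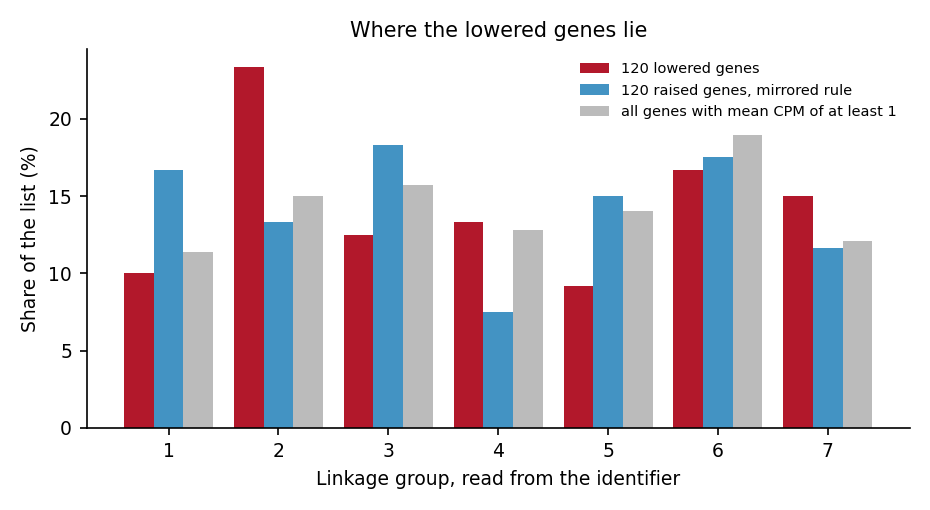
Bars give the share of each list on linkage groups 1 to 7, for the 120 lowered genes, 120 genes raised in both genotypes by the mirrored rule, and the 16946 genes with a mean of at least 1 CPM. The lowered genes stand at 23.3% on group 2, above both other bars there, and at 9.2% on group 5, below both.

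Some of the lowered genes also lay close to another of the set. In the order of tested genes, 31 of the 120 (25.8%) had another within 5 places, forming 15 groups, of which 14 were pairs and 1 held 3 genes. In 7 cases the 2 genes were immediate neighbours. Of the 15 groups, 8 lay on linkage group 2 and held 16 of its 28 genes. The 120 genes raised by the mirrored rule had 14 (11.7%) in 7 pairs, with 1 pair of immediate neighbours and 0 pairs on group 2. No such share was worked out for genes drawn without regard to their values. Of 222 flanking genes directly beside the lowered genes and outside the set, 38 (17.1%) were called lower in both comparisons with H4, against 11.6% of all genes tested. Their median log2 change was −0.08 in FT3OE and −0.05 in RdV. Whether neighbours are copies of one another was not tested, as no sequence was at hand.

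The group of 3 lay on linkage group 1. FvH4_1g19340 had 21.2, 24.1 and 25.5 CPM in H4, compared with 13.8, 14.1 and 13.0 in FT3OE and 16.7, 11.8 and 11.8 in RdV. FvH4_1g19460 had 140, 147 and 150 CPM in H4, compared with 74.3, 68.7 and 67.5 in FT3OE and 49.7, 64.7 and 59.1 in RdV. FvH4_1g19480 had 43.1, 40.9 and 49.3 CPM in H4, compared with 18.3, 17.1 and 18.1 in FT3OE and 16.6, 22.2 and 17.8 in RdV. All 3 were lower in the 6 other libraries than in H4, though by different amounts, with fitted log2 changes of −0.88, −1.15 and −1.41 in FT3OE. Among the genes between them, FvH4_1g19470 and FvH4_1g19471 had log2 changes of −0.17 and −0.01 in FT3OE and −0.11 and −0.17 in RdV, none past the threshold (edgeR adjusted p of 0.201 to 0.931). FvH4_1g19370, in contrast, fell in both, by 3.36 ± 0.36 in FT3OE and 5.14 ± 0.45 in RdV on the log2 scale (SE; edgeR adjusted p = 0.000103 and 9.14e-06); it is outside the set and was picked out after its values were seen.

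The pairs mixed strong and weak drops. On linkage group 6, FvH4_6g49000, described above, lay beside FvH4_6g49010, which had 19.3, 18.7 and 19.9 CPM in H4, compared with 13.1, 10.01 and 10.9 in FT3OE and 11.1, 11.1 and 12.0 in RdV. On the other side, FvH4_6g48990 was also lower than in H4, with log2 changes of −0.93 ± 0.12 in FT3OE and −1.38 ± 0.13 in RdV (SE; edgeR adjusted p = 0.000342 and 1.25e-05). So 3 genes in a row were lower there, and the next, FvH4_6g49020, was not called in either genotype. On linkage group 5, FvH4_5g35630 (log2 −1.23 ± 0.11 in FT3OE and −1.07 ± 0.11 in RdV, SE) and FvH4_5g35660 were separated by FvH4_5g35650, with log2 changes of 0.10 and 0.06.

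On linkage group 2, FvH4_2g12620 and FvH4_2g12640 were immediate neighbours among tested genes but differed widely in level. The first had 213, 192 and 196 CPM in H4, compared with 123, 123 and 125 in FT3OE and 117, 108 and 119 in RdV, a much smaller proportional drop than that of the second, given above. FvH4_2g20460 and FvH4_2g20490 had fitted log2 changes of −1.57 ± 0.41 and −1.87 ± 0.17 in FT3OE and −1.86 ± 0.43 and −1.95 ± 0.17 in RdV (SE). The 2 genes between them, FvH4_2g20470 and FvH4_2g20480, had −0.30 and 0.11 in FT3OE and −0.52 and −0.25 in RdV, and FvH4_2g20470 was called lower in both genotypes (edgeR adjusted p = 0.00842 and 0.000174). On the far side FvH4_2g20500 was also called lower in both, with log2 changes of −0.37 and −0.26, so smaller drops lay beside the larger ones. Over all tested genes of linkage group 2 the median log2 change was −0.0005 in FT3OE and −0.02 in RdV, and 11.8% were called lower in both, close to the 11.6% of all groups.

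**Figure D5:**
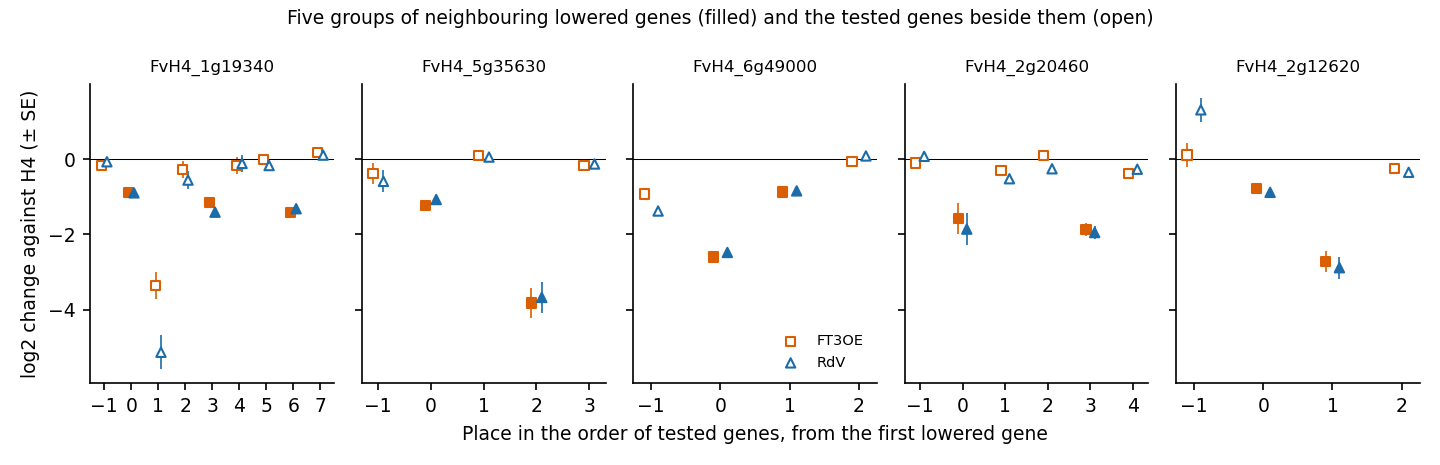
Fitted log2 change against H4 (± SE) in FT3OE (squares) and RdV (triangles) for the 5 leading groups of neighbouring lowered genes, filled, and the tested genes between and beside them, open, in their order along the linkage group. Filled points lie from −0.79 to −3.83, while most open points lie near 0, with FvH4_1g19370 and FvH4_6g48990, which were lower, and FvH4_2g12610, at 1.32 in RdV, farthest from it.

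Gene length and gene model features were compared as further properties that the choice did not use. The 119 genes with a count in every library had a median effective length of 0.908 times that of the genes that could have been chosen; 36 (30.3%) were as short as the shortest 4215 of those 16857 genes and 17 (14.3%) as long as the longest 4215. Of the 120 raised genes of the mirrored rule 30 and 21 were. In all, 7 of the 120 identifiers (5.8%) did not end in 0, against 9.7% of the genes that could have been chosen and 5.8% of the raised genes. Effective length, which moves when the mix of transcript forms of a gene moves, shifted by more than 0.1 on the log2 scale in both genotypes in 1 of the 119 genes, FvH4_4g36104, and in 0.53% of the genes that could have been chosen.

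The edge of the set falls in a dense part of the ranking. The last 3 genes inside were FvH4_2g36660, FvH4_6g08960 and FvH4_6g52950, with drops of 0.6796, 0.6779 and 0.6778 on the log2(CPM + 0.5) scale. The first 3 outside were FvH4_6g12270, FvH4_7g02730 and FvH4_6g31480, with 0.6773, 0.6679 and 0.6668. FvH4_6g12270 had 35.0, 31.3 and 30.6 CPM in H4, compared with 20.8, 20.1 and 19.1 in FT3OE and 16.3, 18.1 and 15.9 in RdV, values of the same kind as those inside. Of the left-out stretch of linkage group 4, 1 gene, FvH4_4g29331, would have met the limits and ranked 60, with 3.38, 2.68 and 1.76 CPM in H4 and 0.95 to 1.27 CPM in the other libraries.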

How the data were processed

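The authors deposited expected counts per gene, which are estimates and not normalized, and TPM per gene, which divide by effective length and by a library sum. Per the labels' protocols the libraries were stranded, made from mRNA and read from both ends (150 bp). The submitters' processing notes list STAR, RSEM and edgeR, with no version or role for any of them. No aligner setting, build or annotation is stated there. Expected counts were whole (within 1e-06) in 97.3% to 97.6% of values per library and were rounded for testing.

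The genes and lists were chosen with earlier results of these data known. CPM in the text divide by library totals; on that scale the median gene lay 0.098 (FT3OE) and 0.065 (RdV) above H4 in log2, while TMM scaling brings it near 0. All genes passing filterByExpr (18587) were tested with edgeR 4.0.16 (R 4.3.3; TMM scaling, quasi-likelihood test, 9 libraries in 1 fit, Benjamini-Hochberg adjustment, called at adjusted p under 0.05). The edgeR test gives no SE, so each SE of a fitted change is its absolute log2 change over the square root of its F statistic. Relative effective length is the expected count over TPM, centred per library. Tables and intervals used Python 3.11.15 and scipy 1.17.1. Named genes follow a rule: the 10 largest drops, the 5 highest TPM in H4, the 3 genes on each side of the edge, the first 5 groups of neighbours, genes called between RdV and FT3OE, genes at 0 in 3 or more of the 6 lower libraries, and the largest rise in FT3OE. All other genes named were picked out after their values were seen. No marker or pathway list could be matched to the identifiers. Alternatives were RLE scaling, library totals, DESeq2 1.42.0, limma 3.58.1 on log2 TPM, no filter, a replicate block, fits of 6 libraries, other forms of the choice, and leaving out each library.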

Additional observations from a re-analysis of the deposited data

How the results depend on the processing

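Under 18 other fits, of 120 genes 113 to 120 remained called lower in FT3OE and 116 to 120 in RdV; in all, 10 genes lost a call in FT3OE under at least 1 of them and 7 in RdV. All 120 genes had changes below 0 in both genotypes in every fit that tested them, and 2 were not tested by limma at a minimum mean of 1 TPM. Other forms of the choice kept 85 (limit of 0.2) to 119 of the 120 genes, and leaving out 1 library kept 97 (without RdV replicate 2) to 112. The median log2 change of the set in FT3OE was −0.99 under library totals and, with limma on TPM, −0.85 (pseudocount 1, with or without the minimum) and −0.94 (pseudocount 0.1); in RdV limma gave −0.88 and −0.99. Leaving out 1 library gave −1.12 to −1.07 in FT3OE and −1.25 to −1.07 in RdV. Over all genes, 1777 were lower in FT3OE under library totals, and 1207, 1171 and 1237 under limma (pseudocount 1, pseudocount 0.1, and pseudocount 1 with no minimum), against 2772; for RdV limma gave 2499, 2454 and 2596, against 4392. On log2(TPM + 1) the median of all genes itself lay 0.13 (FT3OE) and 0.11 (RdV) above H4. The share of higher calls in FT3OE rose from 52.9% to 72.0% under library totals and to 77.8%, 77.9% and 76.8% under limma, and in RdV from 50.9% to 62.5%, 68.0%, 68.2% and 68.3%. Calls between RdV and FT3OE numbered 2744 under limma with pseudocount 0.1, against 4122. Leaving out 1 library gave 2883 to 5183 such calls, 1946 to 3737 genes lower in FT3OE and 3688 to 5109 lower in RdV. The highest of each came without RdV replicate 2. Of the 120 genes, those called between RdV and FT3OE numbered 0 in each limma fit (10 or 11 at an unadjusted p under 0.05, against 14 with edgeR, and 3 past the adjusted threshold with DESeq2), 1 without the filter, 1 with the replicate block, and 1 to 12 with 1 library left out; the cause was not tested. Same-numbered libraries of different genotypes had correlations of their deviations of −0.178 to 0.181, and differently numbered ones of −0.187 to 0.1415. Between H4 and RdV the same-numbered correlations were 0.04, 0.181 and 0.165, against −0.187 to 0.0515 for the others. Between FT3OE and either other genotype the same-numbered ones ran from −0.178 to 0.0419. Whether the numbers pair the libraries was not tested, and the block lost no call of the 120 genes against H4. Depth limits genes under about 1 CPM outside H4, which were 8 in FT3OE and 9 in RdV.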
